A study of Rattus norvegicus with 6 samples.

Results

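The transcriptome of normal rat corneal epithelium was described from the 3 libraries of non-diabetic control rats, taken from the 6 libraries of the series by their labels. In each library 61453 loci were measured. The 20864 whose transcript type is protein_coding alone were ranked by their mean FPKM over the 3 libraries. FPKM is fragments per kilobase of transcript, scaled for library depth. The rats were male Brown Norway animals of 150 to 200 g that received citrate buffer by intraperitoneal injection, and the epithelium was scraped from the trimmed cornea with a razor blade 16 weeks later. The other 3 libraries, from rats given 50 mg/kg streptozotocin, were not used for any value below. The labels number the control rats 1 to 3 (called normal replicates 1, 2 and 3 here), and the methods count 6 corneas for the normal group without saying how they were divided among libraries, so the spread between libraries may be technical in part. With a single group no test was made, and differences between libraries were described by their size.

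The corneal epithelium is the stratified, non-keratinised sheet that covers the transparent front of the eye. Its basal cells are anchored to a basement membrane and are renewed from the limbus at the corneal rim, its middle layers are held together by desmosomes, and its surface cells carry tight junctions and membrane-bound mucins under the tear film. In mammals it is known for storing very large amounts of a few soluble enzymes, chiefly aldehyde dehydrogenases, beside the cornea-specific keratin 12.

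The libraries held 78980853, 76500184 and 81139312 counts, so a locus without counts may still hold up to 0.0370 to 0.0392 CPM (3 counts, counting error only). Protein-coding loci took 70.4%, 70.3% and 70.1% of the counts of normal replicates 1, 2 and 3. Of the 20864 loci, 5213 had no counts in any library, 13708 had counts in every library and 10062 reached 1 FPKM in every library, with a median of 5.32 FPKM among these 10062. The 13 protein-coding loci of the mitochondrial genome are listed at 0 in all 3 libraries, so their share could not be described. A name joining several genes stood on 285 of the ranked loci, where the values of the genes cannot be told apart.

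The 4 markers that define the tissue were measured first. *Krt12* (chromosome 10, 87328549 to 87338128 on build rn6), the keratin found in corneal epithelial cells, stood at 4223, 3964 and 3660.0 FPKM in normal replicates 1, 2 and 3. *Aldh3a1* (chromosome 10, 47489400 to 47499876), an aldehyde dehydrogenase that clears the products of lipid peroxidation and absorbs ultraviolet light, stood at 9143, 9597 and 9171 FPKM. They were the second and the first locus in the ranking of every library. *Krt5*, the type II keratin of basal cells, lies on a locus joined with *Krt72* and *Krt1* (1624, 1683 and 2058 FPKM), so its own level is uncertain; 2 further loci that carry its name have no type or a mixed type and were not ranked. *Pax6*, the transcription factor of the eye field, was at 18.2, 23.2 and 18.5 FPKM, above the median of expressed loci in each library. Of 24 listed markers of corneal epithelium, 22 were found on protein-coding loci under their own name, and all 22 reached 1 FPKM in every library.

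*Aldh3a1* led the transcriptome by a wide margin. Its mean of 9304 ± 255 FPKM (SD, n = 3) was followed by 3949 ± 282 FPKM for *Krt12* and 3018 ± 38.3 FPKM for *Tmsb4x*, which encodes thymosin beta 4, the small peptide that binds actin monomers. The locus of *Krt5*, *Krt72* and *Krt1* (1789 ± 235 FPKM) and *S100a11* (1757 ± 566 FPKM), a calcium-binding protein of the epidermal differentiation complex, were the last to exceed 1000 FPKM. The 3 leading loci did not overlap each other in any library, whereas the order of *S100a11* and the joined keratin locus changed: *S100a11* was ahead in replicates 1 and 3 and behind in replicate 2.

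**Figure D1:**
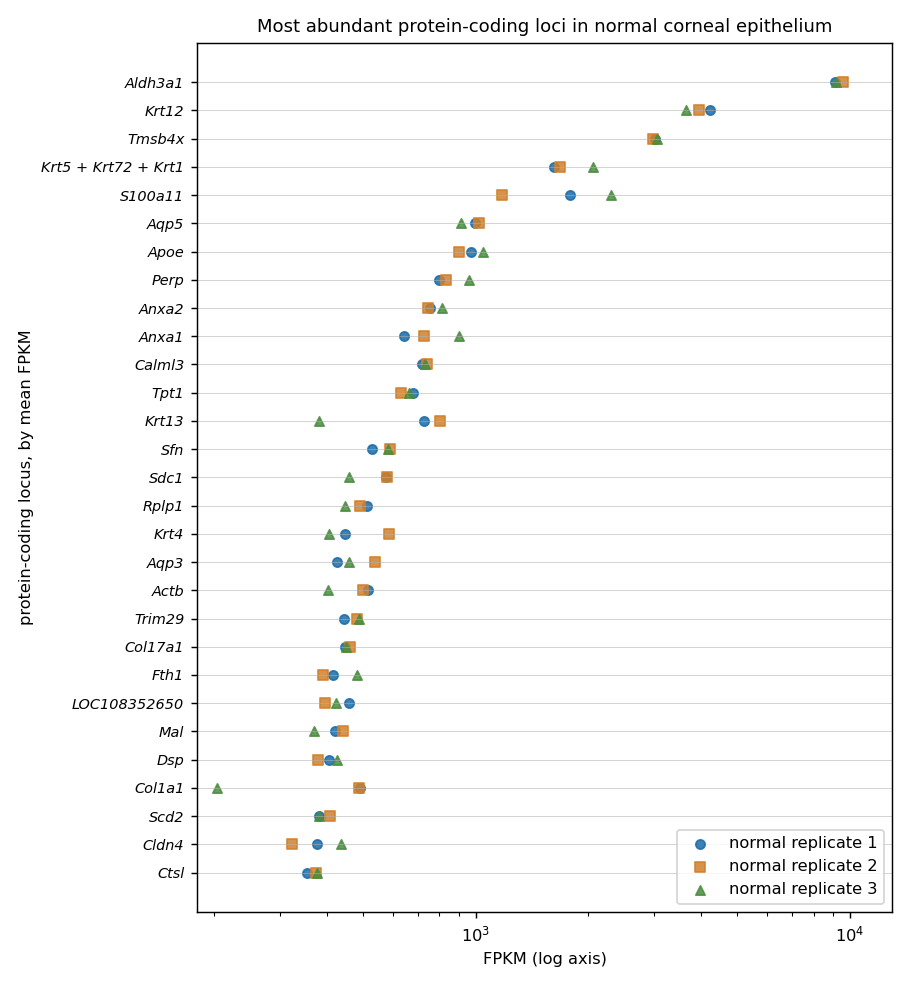
FPKM of 29 of the 30 protein-coding loci of highest mean FPKM in each of the 3 normal libraries, on a log axis, with 1 symbol per library. The 3 symbols of most loci lie close together, while S100a11, Krt13 and Col1a1 are spread, with Col1a1 at 489, 487 and 204 FPKM.

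Keratins took 4 of the 30 places. Beside *Krt12* and the joined *Krt5* locus these were *Krt13* (728, 802 and 382 FPKM) and *Krt4* (446, 586 and 406 FPKM), a pair of keratins known from the mucosal epithelia and from the conjunctiva. *Krt13* was lowest in replicate 3 and ranked 10, 9 and 27 in the 3 libraries. Of 33 loci named for a keratin alone, 12 reached 1 FPKM in every library, and 4 were among the 100 most abundant loci, the other one being *Krt80* (172, 163 and 175 FPKM). The type I keratin of basal and limbal cells, *Krt15*, was at 31.02, 58.5 and 32.4 FPKM. *Krt10*, a keratin of cornified epidermis, was at 3.08, 1.80 and 1.95 FPKM, and *Krt2* is listed at 0. The keratins named alone summed to 5707, 5684 and 4749 FPKM, lowest in replicate 3, but this sum leaves out joined loci. The joined *Krt5* locus (1624, 1683 and 2058 FPKM) and a locus joining *Krt14*, *Krt19*, *Krt17* and *Krt42* (55.2, 54.0 and 81.3 FPKM) were highest in replicate 3. Of the unranked loci that carry the *Krt5* name, the untyped one was highest there (1211 FPKM) and the one of mixed type lowest (558 FPKM).

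Cell contacts were the next large group. *Perp*, a tetraspan protein of desmosomes, was at 799, 834 and 957 FPKM, and desmoplakin (*Dsp*), which ties desmosomes to keratin filaments, was at 405, 378 and 425 FPKM. The tight junction protein claudin 4 (*Cldn4*) was at 377, 324 and 436 FPKM, and plakoglobin (*Jup*), a linker of desmosomes and adherens junctions, was at 282, 268 and 271 FPKM. Of 29 junction loci found, all reached 1 FPKM in every library, 8 were among the 100 most abundant, and the ratio of the highest to the lowest library had a median of 1.15 with 0 of the 29 over 2, beside a median of 1.22 and 5.75% over 2 among all 11334 protein-coding loci with a mean of at least 100 counts. Among the 1145 loci with a mean of at least 10000 counts the median was 1.16 and 2.53% lay over 2. These ratios are of CPM (counts scaled to a fixed library depth) normalised by TMM (trimmed mean of M values), with 0.5 CPM added. Anchorage to the basement membrane was led by *Col17a1*, the transmembrane collagen of hemidesmosomes, at 449, 462 and 451 FPKM, and its partner integrin chains *Itgb4* (89.9, 86.1 and 100.2 FPKM) and *Itga6* (71.9, 74.3 and 76.9 FPKM) followed. The 11 loci of this list summed to 796, 798 and 798 FPKM, nearly level over the libraries. Syndecan 1 (*Sdc1*), a heparan sulphate proteoglycan of the cell surface, was at 576, 581 and 459 FPKM.

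Calcium-binding and membrane-binding proteins stood high. Annexin A2 (*Anxa2*), which binds acidic phospholipids in a complex with *S100a10*, was at 755, 746 and 811 FPKM, and annexin A1 (*Anxa1*), a mediator that limits inflammation, was at 643, 729 and 901 FPKM, highest in replicate 3. The calmodulin-like protein *Calml3*, typical of stratified epithelia, was at 719.6, 739 and 731 FPKM. *S100a10* itself was at 315, 305 and 318 FPKM. *S100a11* was the member of this family that differed most among those over 100 FPKM, with a ratio of 2.01 on the CPM scale. Of the 16 members with a mean of at least 100 counts, 3 (*S100a11*, *S100g* and *S100b*) had a ratio over 2, beside 5.75% of all loci. Their low-abundance relatives *S100a8* and *S100a9*, which are made by neutrophils and by stressed epithelium, were at 0.211, 0.215 and 0.520 FPKM for *S100a8*, and *S100a9* is listed at 0.

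Water channels were abundant: *Aqp5*, the channel of the corneal and glandular surface, was at 995, 1020.0 and 914 FPKM, *Aqp3*, which also carries glycerol, at 425, 539 and 459 FPKM, and *Aqp1* at 165, 186 and 124 FPKM. Markers of the stroma and of corneal endothelium were present in the scrape too, and which cells held *Aqp1* was not tested. The sodium pump regulator *Fxyd3* (129.5, 134 and 124 FPKM) and the pump subunit *Atp1b3* (79.5, 77.02 and 81.2 FPKM) followed, while the chloride channel *Cftr* was at 0.0195, 0.00629 and 0.00416 FPKM. Of 23 transport loci found, 13 reached 1 FPKM in every library. Lipid handling was represented among the 30 leading loci by *Apoe* (972, 905 and 1049 FPKM), the lipid carrier apolipoprotein E, and by *Scd2* (382, 409 and 381 FPKM), a desaturase that makes monounsaturated fatty acids.

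The remaining leading loci covered the cytoskeleton, translation and growth control. Beta actin (*Actb*) was at 515, 499 and 404 FPKM, lowest in replicate 3. *Actg1* lies on a locus of mixed type that was not ranked and stood above *Actb*, at 728, 790 and 812 FPKM, highest in replicate 3. *Tpt1*, an abundant growth-related protein, was at 681, 631 and 662 FPKM, stratifin (*Sfn*), the 14-3-3 protein of keratinocytes, at 529, 589 and 583 FPKM, and *Trim29*, an epithelial tripartite motif protein, at 445, 482 and 489 FPKM. The acidic ribosomal protein *Rplp1* was at 513, 492 and 448 FPKM, and a locus described as ribosomal protein S29 (LOC108352650) at 459.8, 397 and 424 FPKM. Ferritin heavy chain (*Fth1*), which stores iron, was at 417, 391 and 481 FPKM, the raft protein *Mal* at 421, 442 and 370.2 FPKM, and cathepsin L (*Ctsl*), a lysosomal protease, at 354, 374 and 376 FPKM. *Ctsl* took the last of the 30 places with a mean of 367.9 FPKM, and *Glrx*, a glutathione-dependent reductase, followed just outside with 367.8 FPKM, a difference far smaller than the SD of either (12.3 and 34.0 FPKM). The 10 leading loci of every library shared 9 members, the 30 leading loci 26 and the 100 leading loci 88.

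Upstream sequences of leading loci are shown because they let the elements in front of a cornea-defining gene be set beside those of other abundant genes. RefSeq (build GRCr8) gave the 250 bases before the start of 63 of the 100 most abundant genes and of 20 of the 30, matched by symbol. The last 130 bases before the start are printed 5′ to 3′ for *Krt12* (chr10:84874266-84874395, minus strand), *S100a11* (chr2:181875002-181875131, plus strand), *Perp* (chr1:15361654-15361783, plus strand) and *Anxa2* (chr8:78986122-78986251, plus strand). Capitals mark matches to a motif on either strand: TATAAA and CACCC in *Krt12*, GGGCGG in *S100a11*, TGACTCA in *Perp*, and TGACTCA and TATAAA in *Anxa2*; other matches were left in lower case.
Krt12: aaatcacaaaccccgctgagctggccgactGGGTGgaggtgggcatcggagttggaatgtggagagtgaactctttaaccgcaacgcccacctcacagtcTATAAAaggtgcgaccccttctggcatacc
S100a11: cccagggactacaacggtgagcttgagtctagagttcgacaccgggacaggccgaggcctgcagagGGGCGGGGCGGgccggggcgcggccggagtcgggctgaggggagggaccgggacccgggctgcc
Perp: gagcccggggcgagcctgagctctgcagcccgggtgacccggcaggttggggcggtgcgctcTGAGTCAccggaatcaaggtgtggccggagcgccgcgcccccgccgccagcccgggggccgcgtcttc
Anxa2: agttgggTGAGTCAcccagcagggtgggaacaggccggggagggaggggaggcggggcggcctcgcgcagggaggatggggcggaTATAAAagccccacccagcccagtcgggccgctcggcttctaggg

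In *Krt12* the TATAAA match lay 30 to 25 bases before the start and the CACCC match, on the opposite strand, 100 to 96 bases before it. *S100a11* held 2 matches to GGGCGG that share a base, at 64 to 59 and 59 to 54. The TGACTCA match, the letters bound by AP-1 factors of the Fos and Jun families, was read on the opposite strand at 68 to 62 bases in *Perp* and at 123 to 117 bases in *Anxa2*, whose TATAAA match lay at 45 to 40. Over the whole 250 bases, TGACTCA on either strand was found in 8 of the 63 promoters of the 100 most abundant genes (12.7%), namely those of *Perp*, *Anxa2*, *Sfn*, *Krt4*, *Glrx*, *Emp1*, *Rcn1* and *Sprr1a*, in 234 of 7428 promoters of expressed genes (3.15%) and in 698 of 19005 promoters of all protein-coding genes (3.67%). TATAAA was found in 15.9%, 6.04% and 12.3% of these sets, GGGCGG in 71.4%, 61.2% and 40.3%, CACCC in 69.8%, 56.1% and 51.3%, and CCAAT in 31.7%, 36.0% and 35.5%. These matches are descriptions of letters and no test was made. The *Perp* and *Anxa2* promoters were chosen after their matches had been seen.

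The counts were spread over many loci in spite of these leaders. *Aldh3a1* alone took 2.82%, 2.96% and 2.86% of the protein-coding counts of normal replicates 1, 2 and 3, and *Krt12* a mean of 2.58 ± 0.17% (SD, n = 3). The 10 most abundant loci held 8.65%, 8.67% and 8.94% of the counts (8.75 ± 0.163%), the 100 most abundant 18.6% in each library (18.6 ± 0.0271%), and the 1000 most abundant 40.5 ± 0.168%. The shares of the 3 libraries lay close together at each of these depths. A share of counts favours long transcripts, and on the FPKM scale the same 10 loci held 15.7%, 15.7% and 16.7% of the sum and the same 100 loci 32.7%, 32.7% and 33.4%. *Tmsb4x* shows the difference: with a short transcript it took the third rank by FPKM with 0.29% of the counts. Desmoplakin, whose transcript is long, held 0.70%. In descending order of counts, 727 loci held 50% of the protein-coding counts (729, 722 and 710 in the single libraries). Of the 20864 loci, 2454 reached a mean of 10 FPKM, 183 a mean of 100 FPKM and 5 a mean of 1000 FPKM.

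**Figure D2:**
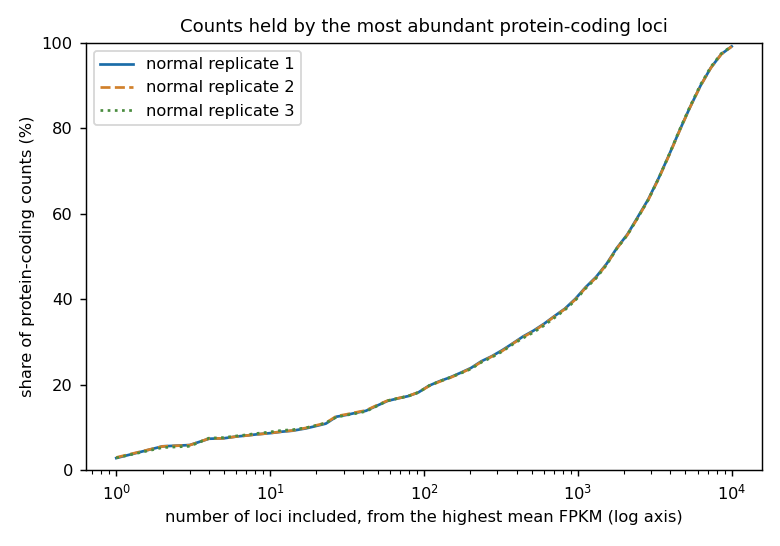
Share of protein-coding counts (percent) held by the loci of highest mean FPKM, by the number of loci included (log axis), with 1 line per normal library. The 3 lines nearly coincide and pass 8.75% at 10 loci and 18.6% at 100 loci (means).

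Functional classes were described from the KEGG and GO terms that the deposited tables attach to each locus, for terms with 10 to 500 expressed loci (281 KEGG and 2502 GO terms). A single gene decided most of the leading KEGG terms. Glycolysis / Gluconeogenesis had the largest summed FPKM, 7.12 ± 0.202% of the protein-coding sum (SD, n = 3), but *Aldh3a1* made up 86.6% of it. Of the 5 terms that came next, all led by *Aldh3a1* (Chemical carcinogenesis, Metabolism of xenobiotics by cytochrome P450, Drug metabolism - cytochrome P450, Tyrosine metabolism and beta-Alanine metabolism, 6.28% to 6.43% each), it made up 95.9% to 98.2%. The Ribosome term was the first of another kind, with 4.62 ± 0.268% and no more than 6.94% of it in its leading locus *Rplp1*. Estrogen signaling (4.45%) drew 58.9% of its sum from *Krt12*, and Regulation of actin cytoskeleton (4.07%) drew 49.2% from *Tmsb4x*. Pathways in cancer (3.48%) completed the 10, and its leading locus *Calml3* held 13.9% of it.

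The GO terms were led by the same locus. Oxidation-reduction process held 10.6 ± 0.249% of the summed FPKM, of which *Aldh3a1* made up 58.4%, with *Scd2*, *Glrx* and *Ptgr1* after it. *Aldh3a1* also led response to drug (9.96%), aging (9.43%), oxidoreductase activity (9.32%), positive regulation of cell population proliferation (8.81%), response to glucocorticoid (8.37%) and response to organic cyclic compound (8.09%), with 61.9% to 76.3% of each. Extracellular space (9.32 ± 0.139%), extracellular region (8.32%) and cytoskeleton (8.02%) were the 3 of the 10 leading terms that did not rest on it: *Apoe* led the extracellular pair and *Tmsb4x* the cytoskeleton. Counted by loci and not by level, 20 of the 100 most abundant loci carried extracellular space, beside 4.24% of all 9792 annotated expressed loci. Calcium ion binding was carried by 13 of the 100 (2.94% of expressed loci), intermediate filament by 9 (0.38%), cell-cell junction by 9 (1.32%) and apical plasma membrane by 10 (1.57%). These terms are a selection. Extracellular region was carried by 16 (3.96%), translation by 13 (3.05%) and synapse by 11 (3.10%). Cell surface (2.41%), cytoskeleton (4.79%), ribosome (2.58%) and structural constituent of ribosome (2.30%) were carried by 12 each. No test was made of these shares, and terms overlap in their loci.

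The gene lists drawn up for the tissue gave a further view of the functional classes. Antioxidant and redox enzymes summed to 10665, 11188 and 10815 FPKM, most of it *Aldh3a1*; the next members were *Fth1*, *Glrx* (333, 368 and 402 FPKM) and the peroxidase *Prdx2* (124, 129 and 123 FPKM), and 28 of the 30 loci found reached 1 FPKM in every library. Cytosolic ribosomal proteins summed to 6329.7, 5580.3 and 5654 FPKM, with 72 of 77 loci at 1 FPKM or more and 10 among the 100 most abundant; *Rplp0* (409, 318 and 367 FPKM) followed *Rplp1*. The ranked loci of the actin cytoskeleton, without the mixed-type locus of *Actg1*, summed to 4731, 4593 and 4620.3 FPKM. They were led by *Tmsb4x*, *Actb* and *Actn4* (352, 311 and 296 FPKM), a crosslinker of actin filaments. Nuclear-encoded subunits of the respiratory chain summed to 2256, 2129 and 1981 FPKM (83 of 92 loci at 1 FPKM or more), translation factors to 1503, 1452 and 1463 FPKM, and the proteasome to 636, 624 and 621 FPKM. Glycolytic enzymes summed to 874, 832 and 823 FPKM, led, among loci with the symbol of a listed enzyme, by *Pkm* (207, 206 and 233 FPKM), *Eno1* (187, 191 and 171 FPKM), *Aldoa* (118, 115 and 112 FPKM) and *Ldha* (112, 108 and 118 FPKM), and the glucose transporter *Slc2a1* was at 30.3, 25.7 and 22.2 FPKM. The pentose phosphate list was led by *Tkt* (144, 141 and 152 FPKM), transketolase, which is known as an abundant soluble enzyme of the cornea.

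Of 13 surface mucin and barrier loci found, 6 reached 1 FPKM in every library and 2 are listed at 0. The membrane mucin *Muc4* was at 150.05, 122 and 163 FPKM, the uroplakin *Upk1b* of surface cells at 248, 272 and 244 FPKM, and *Slurp1*, a secreted Ly6 protein that limits corneal inflammation, at 409.5, 304 and 245 FPKM. The protease inhibitors *Cst6* (169, 172 and 174 FPKM), *Serpinb5* (138, 145 and 157 FPKM) and *Cstb* (125, 117 and 142 FPKM) differed less between libraries than the iron-binding lipocalin *Lcn2* (95.4, 53.6 and 128 FPKM). Of 20 loci of secreted inhibitors and defence, 14 reached 1 FPKM in every library. Among transcription factors of the lineage the epithelial factors *Elf3* (211, 201 and 149.7 FPKM), *Klf4* (140.1, 137 and 130.5 FPKM) and *Ehf* (105, 111 and 86.8 FPKM) stood highest. Of 40 loci of the cell cycle found, all 40 reached 1 FPKM in every library, with a sum of 315, 336 and 315 FPKM. The circadian clock list summed to 119, 125 and 124 FPKM and was led by *Bhlhe40* (22.4, 20.7 and 22.3 FPKM).

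Markers of neighbouring tissues were measured for what else the scrape held. Markers of corneal epithelium summed to 17115, 17271 and 16587 FPKM in normal replicates 1, 2 and 3, of which *Aldh3a1* and *Krt12* were the larger part. Keratocyte markers of the stroma summed to 1392, 1398 and 1061 FPKM: *Col1a1*, a chain of fibrillar collagen, was at 489, 487 and 204 FPKM, and the small proteoglycans keratocan (*Kera*) and lumican (*Lum*) at 258, 284 and 284 FPKM and 168, 148 and 172 FPKM, and *Angptl7*, a secreted stromal protein, at 106, 96.4 and 77.9 FPKM. All 4 are expressed well above the median of 5.32 FPKM, and 15 of the 17 loci found reached 1 FPKM in every library. Lens markers summed to 455, 128 and 179 FPKM, led by the crystallins *Cryaa* (147, 57.9 and 69.2 FPKM), *Crybb2* (122, 25.04 and 51.6 FPKM) and *Cryba1* (52.3, 11.3 and 13.95 FPKM) and the lens galectin *Grifin* (29.5, 7.11 and 11.3 FPKM), with replicate 1 above the other 2 libraries for each. Markers of conjunctiva summed to 1767, 2068 and 1432 FPKM, but *Krt13*, *Krt4*, *Aqp3* and *Muc4* made up nearly all of it; the goblet cell genes *Tff1* and *Tff3* are listed at 0, *Agr2* had 0, 0.0692 and 0 FPKM, and *Spdef* had 0.519, 0.314 and 0.416 FPKM. Limbal markers summed to 497, 489.9 and 437 FPKM, led by *Ifitm3* (137, 111 and 67.9 FPKM), *Itgb4*, *Cxcl14* (92.3, 81.7 and 88.99 FPKM) and *Itga6*.

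Markers of corneal endothelium summed to 156, 169 and 127 FPKM, with the transporter *Slc4a11* at 43.3, 41.96 and 34.97 FPKM and *Col8a2*, a collagen of Descemet's membrane, at 20.5, 25.1 and 11.03 FPKM. Leukocyte markers summed to 20.6, 24.5 and 21.1 FPKM, with *Lyz2* (11.6, 11.99 and 13.9 FPKM) and *Cd74* (5.25, 8.03 and 3.97 FPKM) at the top, *Ptprc*, the common leukocyte antigen, at 0.291, 0.453 and 0.245 FPKM, and 7 of 22 loci at 0. Pigment cell markers summed to 60.1, 76.2 and 65.7 FPKM, nearly all from *Gpnmb* (53.4, 70.04 and 57.5 FPKM), which other cells express too, while *Tyr* was at 0.0826, 0.00703 and 0.04004 FPKM and *Slc45a2* is listed at 0. Markers of blood summed to 3.64, 4.84 and 6.42 FPKM, of vessels to 9.81, 11.4 and 11.5 FPKM, of skeletal muscle to 8.40, 8.54 and 6.09 FPKM, of fat to 9.12, 10.7 and 9.68 FPKM and of Schwann cells to 46.1, 43.9 and 50.8 FPKM. Photoreceptor markers summed to 0.655, 0.149 and 0.217 FPKM, with 5 of 8 loci at 0. Epidermal markers summed to 341, 289.9 and 316 FPKM, from *Sprr1a* (167, 147 and 186 FPKM) and *Dsg1* (142, 118 and 98.9 FPKM), while loricrin (*Lor*), *Krt2* and *Lce1f*, which define the cornified layer, are listed at 0. In scraped tissue, few cells of a type and little RNA per cell cannot be told apart.

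**Figure D3:**
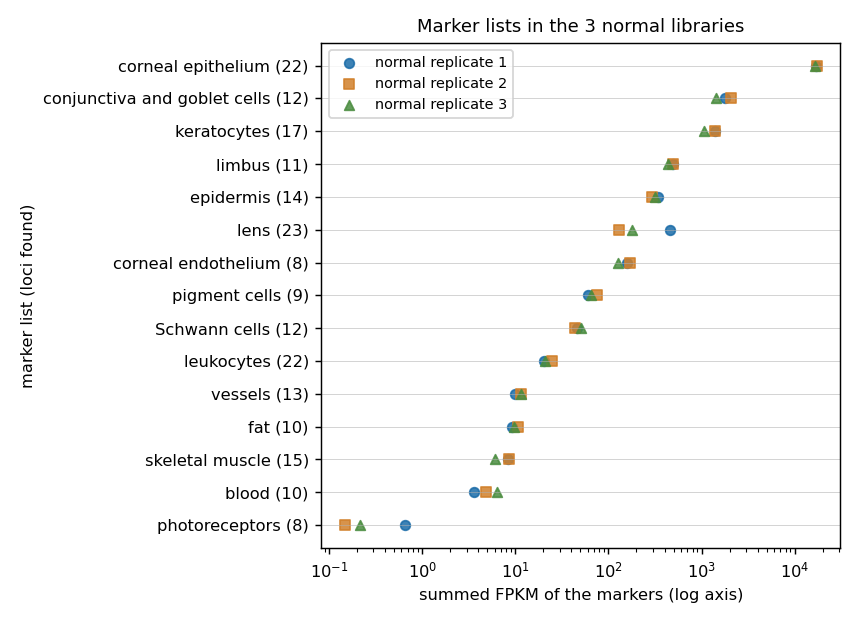
Summed FPKM of the markers of corneal epithelium and of 14 other cell types or tissues in each normal library (log axis), with the number of loci found in brackets. Corneal epithelium stands highest, photoreceptors stand lowest, and the lens list is spread most among the lists over 100 FPKM, at 455, 128 and 179 FPKM.

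Among the 100 most abundant loci the coefficient of variation of FPKM over the 3 libraries had a median of 7.34%, beside 9.88% over all 10062 expressed loci, and 28 of the 100 varied by less than 5%. The steadiest was *Psap*, the precursor of the saposins of the lysosome, at 176, 174 and 176 FPKM (coefficient of variation 0.552%). *Cst6*, *Tmsb4x*, *Calml3*, *Emp1*, *Col17a1*, *Atp5f1b*, *Mgarp* and *S100a10* were also among the 10 steadiest, with coefficients from 1.26% to 2.25%. *Emp1*, an epithelial membrane protein, was at 287, 280.1 and 287 FPKM, *Atp5f1b*, the beta subunit of ATP synthase, at 176, 171 and 171 FPKM, and *Mgarp*, a mitochondrial protein abundant in the cornea, at 311, 301 and 309 FPKM. *Actb*, a common reference gene, varied by 12.7% and *Aldh3a1* by 2.74%. With 3 libraries these coefficients are themselves imprecise. A ratio of highest to lowest library over 2 was found for 5 of the 100: *S100a11*, *Krt13*, *Col1a1*, *Igfbp2* and *Hspa1b*, the last of which has a near copy. The share over 2 was 5.75% among all 11334 loci with a mean of at least 100 counts. It was 2.53% among loci with a mean of at least 10000 counts.

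Differences between the 3 control libraries were read from the ratio of the highest to the lowest library over all 11334 loci, where counting alone gives a coefficient of variation of at most 10%. The median ratio was 1.22, 5236 loci lay under 1.2 and 652 (5.75%) lay over 2, of which 52 lay over 10. The common biological coefficient of variation, the spread beyond counting error estimated by edgeR over all of these loci, was 0.235. The share over 2 fell with abundance: 9.05% of 4274 loci with a mean of 100 to 1000 counts, 3.99% of 5915 loci up to 10000 counts and 2.53% of 1145 loci above it. Replicates 1 and 2 were the closest pair (286 of 11331 loci or 2.52% over 2), followed by 1 and 3 (361 of 11329 loci or 3.19%) and 2 and 3 (393 of 11332 loci or 3.47%). For each pair the squared deviation of a locus, in units of its counting variance, had a median of 8.01 to 14.7 and a mean of 76.9 to 129, which says only that the libraries were not 1 library deposited more than once.

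**Figure D4:**
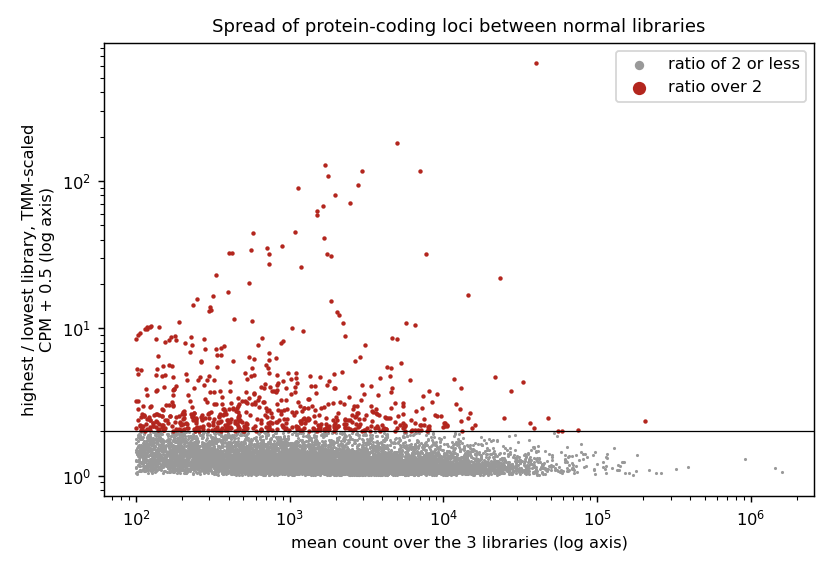
Ratio of the highest to the lowest normal library (TMM-scaled CPM with 0.5 added) against the mean count of each of the 11334 protein-coding loci with at least 100 counts on average, both on log axes. The line marks a ratio of 2, and 652 loci lie above it, fewer of them at high counts.

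The largest ratios belonged to loci that had reads in some libraries and none or nearly none in others. Of the 30 loci of largest ratio, 16 had no counts in at least 1 library, 20 carried a clone-derived, LOC or joined name, and 3 had at least 100 counts in every library. The first was a locus joining *Poteg* with 2 clone-derived names, with 46252, 73442 and 82 counts in normal replicates 1, 2 and 3. Several were described in the tables as copies of a gene that was also measured elsewhere. A further heterogeneous nuclear ribonucleoprotein A/B locus (LOC103689931) had 6, 6657 and 8250 counts, while *Hnrnpab* had 7972, 6431 and 9119 counts. An RNA-binding protein 39-like locus (LOC100910882) had 0, 0 and 5114 counts, while *Rbm39* had 6833, 7588 and 6731 counts. A syntaxin-7-like locus (LOC100910446) had 0, 3414 and 0 counts beside 5091, 4760 and 5630 counts for *Stx7*. Each copy had 6 counts or none in at least 1 library, and the genes they resemble had a ratio of 1.36, 1.18 and 1.13. The copies of *Map3k7* and *Atn1* (LOC100910771 and LOC100911672) had 0, 2245 and 2661 counts and 2287, 0 and 2200 counts, and the genes had a ratio of 1.17 and 1.07. Summed with its copy, each of these 5 genes had a ratio of 1.66 to 2.16, above the 1.07 to 1.36 of the genes alone. Reads of near-identical copies can be assigned to either, so the values of such loci are uncertain. Whether reads moved between these copies and genes was not tested.

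*Hspa1b*, the inducible heat shock protein, had 60499, 34591 and 72867 counts and was lowest in replicate 2, where a locus described as heat shock 70 kDa protein 1A (LOC108348108) had 20195 counts against 141 and 712 in replicates 1 and 3, so the level of each is uncertain. Summed, they stood at 761, 714 and 918 CPM with a ratio of 1.29, beside 2.02 for *Hspa1b* alone. *Erbb2*, a receptor of the epidermal growth factor family, had 45619, 9787 and 9813 counts, high in replicate 1. An erbB-2-like locus (LOC102552659) had 3179, 0 and 2694 counts, and summed with *Erbb2* the ratio was 4.79. The *Erbb2* locus (chromosome 10, 86367532 to 86430428) covers a locus of the small nuclear RNA U2 (86430067 to 86430256). The part of U2 in its counts was not tested. Among those of the 30 with an ordinary symbol were *Vwa5a*, *Ogn*, *Tpi1* and *Pura*. *Vwa5a*, a protein with a von Willebrand factor A domain, had 4647, 4154 and 0 counts. *Ogn*, a small stromal proteoglycan, had 2002, 0 and 2484 counts. Of 17 keratocyte markers, 10 were highest and 3 lowest in replicate 2. *Tpi1*, a glycolytic isomerase, had 1306, 0 and 374 counts. Its locus (chromosome 4, 157328379 to 157331905) lies near LOC100911672 (157267401 to 157281202), which had no counts in replicate 2 either. Whether reads of *Tpi1* were assigned elsewhere was not tested, so its level is uncertain. *Pura*, a nucleic acid binding protein that overlaps an untyped locus of the same name, had 1669, 31 and 1859 counts. *Cox7a1*, a subunit of cytochrome c oxidase, was 1 of the 3 among the 30 with at least 100 counts in every library. It had 33396, 34819 and 1627 counts, and replicate 3 was 21.8-fold below replicate 2. Its locus spans 91070414 to 91094808 on chromosome 1, and whether all of these counts belong to *Cox7a1* was not tested. Over all 11334 loci, 39 had no counts in 1 or 2 libraries, and 18 of these carried a clone-derived, LOC or joined name; 19 were without counts in replicate 1, 16 in replicate 2 and 14 in replicate 3. The zeros were therefore not gathered in 1 library.

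Loci with graded differences were listed apart, a choice made after the values had been seen: those with an ordinary symbol, at least 100 counts in every library and a mean of at least 20 FPKM. Of 994 such loci, 29 had a ratio over 2, beside 652 (5.75%) of all 11334 loci. Of the 10929 loci with at least 100 counts in every library, 481 had such a ratio. The immediate early gene *Egr1*, whose level is known to rise within minutes of a stimulus, lay under the FPKM limit on average but is given for its size: it stood at 31.9, 14.9 and 167 CPM (TMM-scaled), highest in replicate 3. *Jun*, an AP-1 factor, stood at 78.4, 57.3 and 181 CPM and was highest in replicate 3 too. *Tgm2*, a transglutaminase that crosslinks proteins, stood at 715, 376 and 166 CPM, and *Gsn*, which severs actin filaments, at 234, 51.7 and 156 CPM; both were highest in replicate 1. *Tp63*, the transcription factor of stratified epithelia, stood at 101, 197 and 249.99 CPM, and the quinone reductase *Nqo1* at 24.4, 56.6 and 63.7 CPM; both were lowest in replicate 1. *Col1a1* (3225, 3231 and 1383 CPM), *Krt13* (1085, 1203 and 586 CPM) and the growth factor binding protein *Igfbp2* (559, 629 and 301 CPM) were alike in replicates 1 and 2 and lower in replicate 3. *Lcn2* (95.9, 54.3 and 133 CPM) and *S100a11* (745, 493 and 988 CPM) were highest in replicate 3 and lowest in replicate 2.

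**Figure D5:**
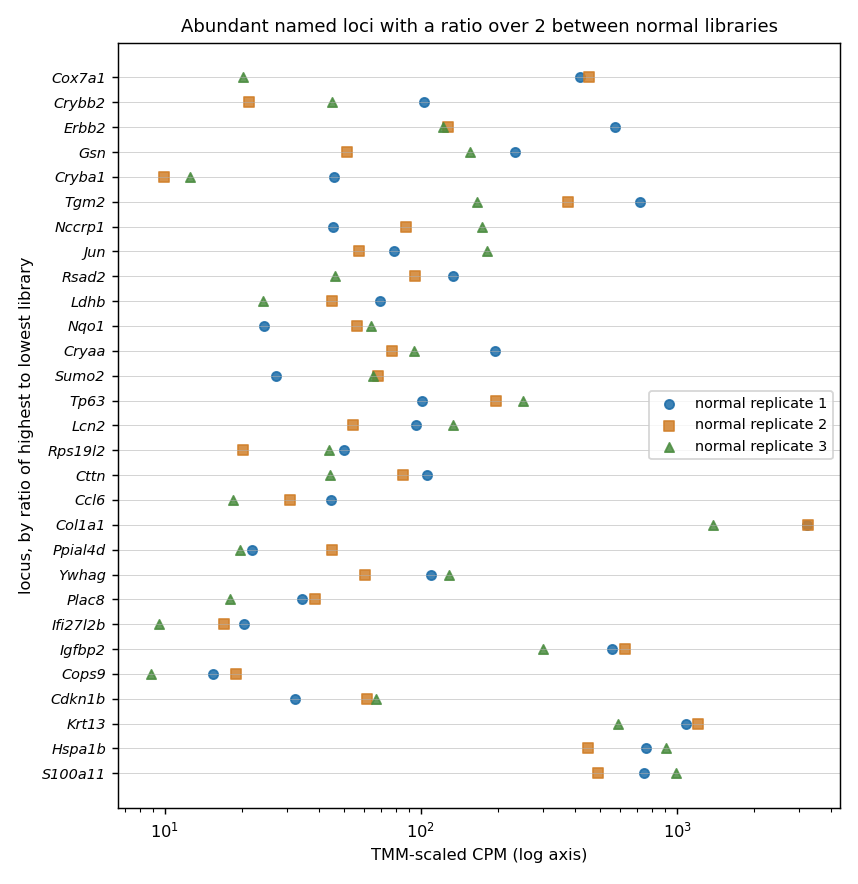
TMM-scaled CPM (log axis) of the 29 named loci with at least 100 counts in every library, a mean of at least 20 FPKM and a ratio over 2, with 1 symbol per normal library. The lens crystallins Crybb2, Cryba1 and Cryaa are highest in replicate 1, and Col1a1, Igfbp2 and Krt13 are lowest in replicate 3.

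The promoter of *Egr1* is shown for the serum response element, the element through which growth factor and stress signals are known to act on this gene. The 130 bases before its start (RefSeq, GRCr8, chr18:26736948-26737077, plus strand) held 2 matches, in capitals, at 105 to 96 and 83 to 74 bases before the start.
Egr1: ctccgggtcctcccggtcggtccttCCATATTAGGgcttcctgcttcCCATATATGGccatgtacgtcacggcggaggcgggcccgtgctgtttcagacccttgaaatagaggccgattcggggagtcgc

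The element was found in the 250 bases of 1.16% of 7428 expressed promoters and 1.59% of those of the 100 most abundant genes. A match is a description of the sequence and not a cause of the levels.

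Whole gene lists also differed between the libraries, read against all 11334 loci, of which 30.4%, 32.8% and 36.8% were highest and 30.1%, 32.2% and 37.7% lowest in normal replicates 1, 2 and 3. All 14 lens markers with a mean of at least 100 counts were highest in replicate 1, 13 of them had a ratio over 2, and their median deviation from the mean of the libraries was 1.12, −0.67 and −0.41 on the log2 scale. Of 26 immediate early and stress genes, 17 were highest in replicate 3 and 15 lowest in replicate 2. A ratio over 2 was found for 7, beside 5.75% of all loci, namely *Jun*, *Egr1*, *Btg2*, *Ccn2*, *Fos*, *Csrnp1* and *Hspa1b*, the last of which had a ratio of 1.29 with its copy. The list summed to 770.1, 613 and 991 FPKM, or 497, 452 and 673 FPKM without *Hspa1b*. Of 26 interferon-stimulated genes, 20 were lowest in replicate 3, with *Rsad2*, an antiviral enzyme, at 32.1, 22.8 and 10.8 FPKM, *Irf7* at 29.8, 33.3 and 20.8 FPKM and *Ifit2* at 32.4, 34.1 and 28.8 FPKM. Of 34 histone loci, 27 were lowest in replicate 3, and 1 had a ratio over 2. The median deviations of the histones were 0.18, 0.09 and −0.30. Those of the shortest of 5 equal classes of transcript length were 0.02, 0.01 and −0.02, and those of the longest −0.02, −0.01 and 0.03. The part of transcript length was not tested. Of 17 keratocyte markers, 11 were lowest in replicate 3 and 5 had a ratio over 2, beside 5.75% of all loci, whereas *Dcn*, the proteoglycan decorin (89.2, 91.2 and 135 FPKM), *Kera* and *Lum* were not lowest there. Of 72 ribosomal protein loci, 46 were highest in replicate 1, with a median deviation of 0.10. Over all 11334 loci the median deviations were 0.0052, 0.0054 and −0.00025.

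Heat shock proteins summed to 971, 855 and 1081 FPKM. This sum holds *Hspa1b* but not its copy LOC108348108 (0.736, 109.9 and 3.62 FPKM), which was high in replicate 2. The glucocorticoid response list summed to 155, 117 and 184 FPKM, histones to 1548, 1486 and 1131 FPKM, interferon-stimulated genes to 253, 243 and 196 FPKM and antigen presentation to 67.9, 79.97 and 61.7 FPKM. For the 22 corneal epithelium markers the median ratio was 1.15, 1 (*Tp63*) had a ratio over 2, and the median deviations were −0.03, 0.02 and 0.01. Other lists of the tissue lay above the median ratio of 1.22 of all loci: keratins had 1.32 with 2 of 13 loci over 2 (*Krt13* and *Krt23*), lineage transcription factors 1.26 with 3 of 21 (*Tp63*, *Ovol1* and *Sox2*), surface mucins and barrier 1.32 with 2 of 6 (*Tgm2* and *Muc15*), and limbus 1.25 with 0 of 10, beside 5.75% over 2 among all loci. The median ratios of junctions, translation factors, proteasome and basement membrane adhesion ran from 1.13 to 1.19. The median ratio was 1.16 for all loci with a mean of at least 10000 counts. In the same libraries the lens markers were highest in replicate 1 and *Col1a1* was lowest in replicate 3, and the part of these markers in the differences of other genes was not tested.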

How the data were processed

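Corneal epithelium of 3 normal rats was profiled by RNA-seq. Per the labels and the submitters' processing notes, the authors used cutadapt, FastQC and Bowtie2 with build rn6; the sources used here name no assembler, counter or version. The deposited tables give, for each locus, a raw count and an FPKM value with its name, transcript type, GO and KEGG terms. Deposited FPKM values up to 0.0001 at a count of 0 (42807 values) were set to 0.

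FPKM was used for levels between genes, whereas libraries were compared on counts scaled by TMM (edgeR 4.0.16, R 4.3.3) in Python 3.11.15 with pandas 2.3.3, numpy 2.4.6 and matplotlib 3.10.9. The highest to lowest library ratio was taken after adding 0.5 CPM, for loci with a mean of at least 100 counts. The common biological coefficient of variation came from an intercept-only edgeR model, and both scripts were tested on simulated counts. DESeq2 1.42.0 size factors, other filters, offsets and rankings and the omission of each library were tried as alternatives. A locus counted as expressed at 1 FPKM or more in every library.

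Named were the label markers, the 30 loci of highest mean FPKM, up to 4 members per gene list by FPKM, the 10 steadiest of the 100 most abundant loci, the 30 loci of largest ratio and the 10 KEGG and 10 GO terms of largest summed FPKM. Where several loci carried a symbol, the protein-coding locus of highest FPKM was used. Genes named beyond these rules, among them low or absent markers, copies and graded loci, were chosen after their values had been seen. Some loci that these rules select are not reported here. The members and the 40 gene lists were chosen with earlier results of these data known. The floor of 3 counts covers counting error only. With 1 group, no p-value was computed. Promoter sequences are from RefSeq (GRCr8), and coordinates of loci are from the deposited tables (rn6).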

Additional observations from a re-analysis of the deposited data

Results flagged for a closer look

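Signal outside the ranked loci was measured in the same 3 normal libraries. Loci without a transcript type held a mean of 18.9% of all counts, loci whose type joins protein_coding and another type held 5.91%, and loci of other types held 4.87%. Small nuclear RNA loci alone held 1.31% (1.45%, 1.45% and 1.04% in replicates 1, 2 and 3). The locus of *Rn7sl1*, the RNA of the signal recognition particle, joined with a clone-derived name, had a mean of 14904 FPKM (14798, 18330 and 11582 FPKM), above the 9304 FPKM of *Aldh3a1*. These loci entered no ranking, since the rule takes protein-coding loci alone.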

How the results depend on the processing

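The shares depended on how loci were ranked and counted. The 10 most abundant loci held 8.75% of protein-coding counts. They held 10.4% when ranked by CPM, 16.0% of summed FPKM, 7.83% without joined names, 6.15% of the counts of all loci and 8.13% with loci of mixed type, an alternative chosen after seeing the data. For the 100 most abundant loci the main value was 18.6%, and the same settings gave 23.8%, 32.9%, 18.0%, 13.1% and 17.8%. With 1 library left out, the shares were 8.66% to 8.80% and 18.5% to 18.9%. Of the summed FPKM, 50% was held by 409 loci, against 727 loci for counts (721 to 730 with 1 library left out).

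The number of loci with a ratio over 2 was 652. A mean of at least 1000 counts left 265, fewer loci being compared, and 289 to 385 were found with any 1 of the 3 libraries left out, where the ratio is over 2 libraries instead of 3. It was 650 with DESeq2 size factors, 654 without TMM, 468 on deposited FPKM, 547 to 796 with other offsets, 948 without a filter or with a mean of at least 10 counts, and, in alternatives chosen after seeing the data, 481 with at least 100 counts in every library and 529 without clone-derived, LOC and joined names. The common biological coefficient of variation of 0.235 was 0.295 with a mean of at least 10 counts, 0.326 without a filter, 0.190 with a mean of at least 1000 counts, 0.183 with at least 100 counts in every library (chosen after seeing the data) and 0.219 to 0.247 with 1 library left out. The cause of these shifts was not tested. The number of expressed loci stayed within 1.5 times of 10062, from 8450 to 11543 under other thresholds. No paired analysis was possible because only the normal libraries were used and no test between groups was made.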

Other observations

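Genes of the inflammasome and of pyroptotic cell death, the process the series was made to study, were described in the normal libraries from a list of 32 genes drawn up after the data had been seen. Of the 32 loci, 22 reached 1 FPKM in every library, and the median of these 22 was 6.71 FPKM, beside 5.32 FPKM for all expressed loci (3.63 FPKM over all 32). The highest were *Rela*, a subunit of the transcription factor NF-kB, at 24.9, 25.1 and 27.0 FPKM in replicates 1, 2 and 3, *Il1rn*, the antagonist of the interleukin 1 receptor, at 23.0, 17.0 and 25.9 FPKM, and the kinase *Nek7* at 11.5, 10.7 and 11.6 FPKM. The adaptor *Pycard* was at 7.40, 8.41 and 6.63 FPKM, the cytokine *Il18* at 5.98, 9.04 and 6.38 FPKM and the protease *Casp1* at 2.46, 2.97 and 2.70 FPKM. The sensor *Nlrp3* (0.0566, 0.0615 and 0.105 FPKM), the cytokine *Il1b* (0.0945, 0.270 and 0.0776 FPKM) and the pore protein *Gsdmd* (0.450, 0.798 and 0.665 FPKM) lay under 1 FPKM in every library, and *Gsdmc* had 0 counts. Of the 25 loci with a mean of at least 100 counts, 1 (*Tlr2*) had a ratio over 2, and the median ratio was 1.27, beside 5.75% over 2 and a median of 1.22 among all loci.

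*Npy*, which encodes neuropeptide Y, a peptide of sympathetic nerves, was among the 100 most abundant loci at 189, 231 and 250.5 FPKM, with rank 61, as was a neighbouring locus described as pro-neuropeptide Y-like (LOC100912228) at 168, 203 and 220.2 FPKM, with rank 70. Both were lowest in replicate 1 and highest in replicate 3. The counts were 9822, 11591 and 13442 for *Npy* and 9174, 10772 and 12473 for the other, and reads of such near copies cannot be told apart, so each level is uncertain. Both genes were named after their values had been seen.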
